A study of Bos taurus with 4 samples.

Results

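The 79 genes described here encode the proteins of the cytosolic ribosome, 47 of the large subunit and 32 of the small subunit. They were chosen by name: a probe belonged to the group when its accession mapped to a bovine gene symbol of an RPL or RPS protein, to the stalk proteins RPLP0, RPLP1 and RPLP2, or to RPSA, with the kinases named after RPS6 left out. The group held 253 of the 43653 gene probes on the array, 154 for the large and 99 for the small subunit. Genes were measured by 1 to several probes, and probes of 1 gene share their transcript, so that they are not independent of each other.

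Semitendinosus muscle of Hereford (HER) bulls, a beef breed, was compared with that of Holstein-Friesian (HF) bulls, a dairy breed, at 15 months of age. RNA of 1 HER bull and 1 HF bull was labelled with different dyes and hybridised together on each of 4 dual-colour Agilent bovine arrays, which lay on 1 slide. Visible fat and connective tissue had been trimmed off the samples, which came from the middle of the muscle, and the labels name no treatment. The arrays are numbered 1 to 4 as the biological replicates in the labels, and each value is a difference between 2 animals, so that the breeds were compared over 4 pairs of bulls.

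Ribosomal proteins are assembled with ribosomal RNA in the nucleolus into a small subunit, which reads the mRNA, and a large subunit, which joins the amino acids. Their mRNAs are among the most abundant of most tissues and carry a tract of pyrimidines at their start (terminal oligopyrimidine or TOP mRNAs), through which the growth-regulating kinase complex mTORC1 controls their translation. In skeletal muscle, ribosome number limits the capacity for protein synthesis, and the making of ribosomes accompanies muscle growth.

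All ratios are given as log2(Cy5/Cy3), in which a value of 1 is a 2-fold higher signal in the Cy5 channel. The labels of all 4 arrays name Cy3 for HER and Cy5 for HF, but the same labels speak of exchanged dyes, and the study's supplementary tables give RPS12 and RPS20 the breed opposite to the one the dye names give here. The direction between the breeds was therefore not settled, and "higher" and "lower" below mean higher and lower in Cy5. The dyes lay the same way on all arrays, so that dye and breed cannot be told apart.

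Every ribosomal protein probe was measurable: all 253 lay well above background in both channels on all 4 arrays, and none was saturated. The probes were bright, with a median at percentile 98.2 of all tested probes, and 127 of the 575 tested probes at or above that brightness (22.1%) belonged to ribosomal proteins. Over all genes, the median signal per array was 129 to 160.5 in Cy5 and 77 to 138 in Cy3 over a local background of 37 to 41. The labelled tissue was borne out by its markers, since 8 of 8 measured skeletal muscle genes were well above background in both channels on all arrays. Between the channels 0 of these 8 passed the test, which does not bear on the tissue, and their means ranged from -0.69 to 0.71. Of the fibroblast markers, 2 of 6 were lower (COL1A1 by a log2 ratio of -2.05 and COL3A1 by -1.68). The list's other collagen COL1A2 and LUM had means of -1.34 and -0.77, but DCN and PDGFRA had means of 0.42 and 0.49 and were above 0 on 4 and 3 of the 4 arrays, and the list median per array was -1.37 to -0.42. No adipocyte, endothelial, macrophage and lymphocyte or blood marker passed the test (limma). The adipocyte markers had means of -1.19 to 0.02, with a list median per array of -0.80 to -0.11. The macrophage and lymphocyte markers had means of -0.08 to 0.68, with a list median per array of 0.04 to 0.34. The endothelial and blood list medians lay on both sides of 0 between arrays. These cell types' part in the ribosomal protein values was not tested, and in bulk muscle fewer cells of a type and less RNA per cell cannot be told apart.

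Few ribosomal proteins passed the test. With limma and a Benjamini-Hochberg adjusted p under 0.05 over 32606 tested probes, 5 of 253 ribosomal protein probes were higher (1.98%), against 1.97% of all tested probes. The 5 probes were 2 of RPS20 and 1 each of RPS28, RPS19 and RPS27. These were 5 of 99 small subunit probes (5.05%), beside 0 of 154 large subunit probes, and the difference in calls was not tested. Only 1 probe, of RPL7, was lower (0.395%), against 1.35% of all tested probes, and the background for either direction was 3.32%. The share of ribosomal protein probes called higher was thus at the background. Taking each gene by its brightest probe, 3 of 79 genes were higher (RPS28, RPS19 and RPS20), with a background of 2.92%, and 0 were lower, with a background of 1.54%. At an unadjusted p under 0.05 in limma, 70 probes were higher (27.7%, background 13.8%) and 22 lower (8.7%, background 10.9%). The study listed genes that reached a p of 0.05, unadjusted, and were changed 1.3-fold or more. By that criterion 25 probes were higher (9.88%, background 7.96%) and 4 lower (1.58%, background 6.48%).

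RPS28, a small protein near the mRNA exit of the small subunit, had the highest mean of all 79 genes. Its brightest probe gave 0.72, 0.53, 1.14 and 0.63 on arrays 1 to 4. It was above 0 on every array, and array 3 was the highest. The mean was 0.75 ± 0.27 (SD, n = 4), a 1.69-fold higher Cy5 signal, with an adjusted p of 0.0419 in limma. Both other RPS28 probes, at 0.59 and 0.54, had adjusted p of 0.0565 and 0.0510 (limma) and showed the same order of the arrays.

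RPS20, a protein of the head of the small subunit, gave 0.63, 0.51, 0.39 and 0.47 with its brightest probe. The arrays lay close together, all above 0, with a mean of 0.50 ± 0.10 (SD, n = 4) and an adjusted p of 0.0418 in limma. Its other probe gave 0.54, 0.44, 0.38 and 0.60, with a mean of 0.49 and an adjusted p of 0.0419 (limma). RPS20 was the only ribosomal protein gene with more than 1 probe past the threshold.

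RPS19, which is needed to mature the RNA of the small subunit and is mutated in the inherited anaemia of Diamond and Blackfan, gave 0.44, 0.37, 0.74 and 0.49. Here too array 3 was the highest and array 2 the lowest. The mean was 0.51 ± 0.16 (SD, n = 4), and the adjusted p was 0.0472 in limma. The 5 probes of RPS19 had means of 0.22 to 0.51, and the values were smallest in both dimmest probes.

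For RPS27, a zinc-finger protein of the small subunit, the called probe was not the brightest. It gave 0.49, 0.43, 0.42 and 0.39, a mean of 0.43 ± 0.04 (SD, n = 4) with an adjusted p of 0.0433 in limma. The brightest probe gave 0.28, 0.32, 0.36 and 0.46, a mean of 0.35 with an adjusted p of 0.0614 (limma). The remaining, dim probe ranged from -0.18 to 0.66 between arrays.

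RPL7, an RNA-binding protein of the large subunit, ran the other way with all of its 7 probes after loess, and above 0 when arrays were centred on the median instead. Its called probe gave -0.39, -0.56, -0.36 and -0.49, with a mean of -0.45 ± 0.09 (SD, n = 4) and an adjusted p of 0.0450 in limma. Its brightest probe gave -0.30, -0.44, -0.27 and -0.39, with an adjusted p of 0.0634 (limma). The means of the 7 probes lay between -0.45 and -0.31, although 1 of them was far dimmer than the rest. With median centring, which raised bright probes in general, the brightest RPL7 probe stood at 0.51, above the median of 0.24 over all tested probes and below the median of 0.82 over tested probes of like brightness.

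None of these calls was firm, since the 3 genes called by their brightest probe all missed the threshold in limma when any 1 array was left out. The adjusted p then ranged from 0.0767 to 0.112 for RPS28, from 0.0842 to 0.128 for RPS19 and from 0.0805 to 0.137 for RPS20. Over all tested probes, the 1083 calls dropped to between 5 and 115 when 1 array was left out.

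**Figure D1:**
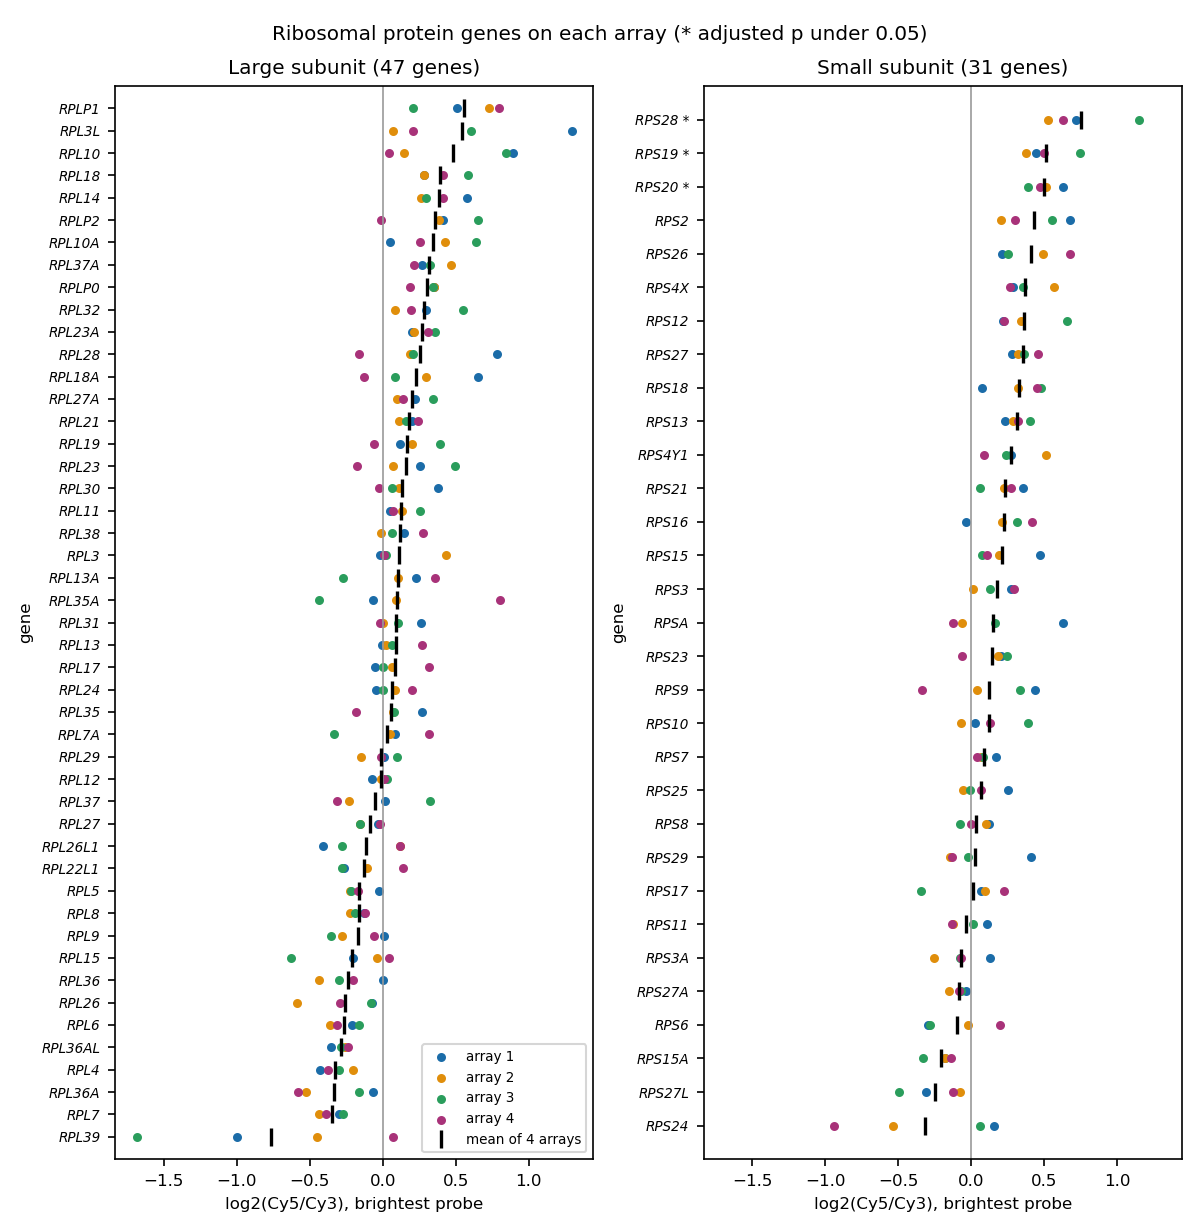
Log2(Cy5/Cy3) after loess for the brightest probe of 78 of the 79 ribosomal protein genes, with 1 point per array, a bar at the mean of the 4 arrays, the large subunit on the left and the small subunit on the right. RPS28, RPS19 and RPS20, marked with an asterisk, lie above 0 on every array, and RPL39 and RPL7 have the lowest means after loess, although both lie above 0 with median centring.

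As a group the ribosomal proteins leaned slightly to Cy5. The 253 probes had a median of 0.10, against 0.01 over all tested probes, and ranged from -0.76 to 0.75. Per array the ribosomal protein median was 0.16, 0.04, 0.06 and 0.08. Array 1 had the highest of these and all 4 lay above 0. On all 4 arrays 90 probes were above 0 (35.6%), with a background of 18.3%, and 29 were below 0 (11.5%), with a background of 14.5%. By brightest probe 29 of 79 genes were above 0 on all arrays, with a background of 20.4%, and 12 were below 0, with a background of 13.8%.

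The lean was larger in the small subunit, which binds the mRNA, than in the large one. The medians of the 99 small subunit probes were 0.22, 0.10, 0.14 and 0.13 on arrays 1 to 4, and those of the 154 large subunit probes were 0.10, 0.02, 0.03 and 0.02. On each array the small subunit was the higher. The large minus small difference was -0.12, -0.08, -0.11 and -0.11, with a mean of -0.10 ± 0.02 (SD, n = 4). It is given as a description, with no test. The small subunit probes were also slightly brighter, with a median at percentile 98.6 of all tested probes, against 98.0 for the large subunit. The part of brightness in the difference was not tested. By brightest probe the difference was -0.18, -0.07, -0.13 and -0.08, with a mean of -0.11 ± 0.05 (SD, n = 4), and without the paralogs its mean was -0.10. Of the small subunit probes 44.4% were above 0 on all arrays and 6.06% below, and of the large subunit probes 29.9% were above and 14.9% below. At the study's cut-offs, applied to the limma p, 17 small subunit probes were higher (17.2%) and 0 lower. Of the large subunit probes 8 were higher (5.19%) and 4 lower (2.60%), beside backgrounds of 7.96% higher and 6.48% lower. The sign of the subunit difference was the same under all 11 alternative settings, with means of -0.13 to -0.10 and single arrays from -0.17 to -0.08. Several of these settings could not have changed it. Both other filters on dim probes kept the same 253 probes, and leaving out 1 array reused array values that were all below 0. The series table repeated the scanner-processed signals.

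**Figure D2:**
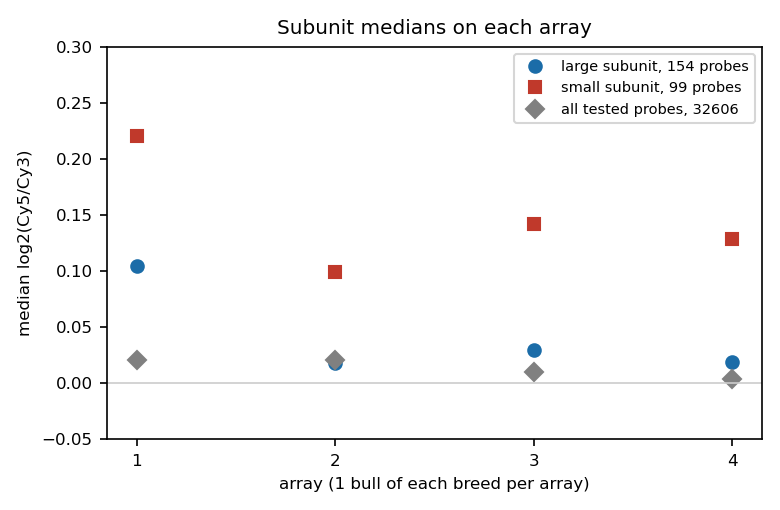
Median log2(Cy5/Cy3) on each of the 4 arrays for the 154 large subunit probes (circles), the 99 small subunit probes (squares) and all 32606 tested probes (diamonds), after loess. The small subunit lies above the large subunit on every array, by 0.08 to 0.12.

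The size of the group's lean rested on how the dyes were balanced, because ribosomal protein probes are bright and the raw Cy5/Cy3 ratio climbed with brightness. Centring each array on its median, with no correction along the intensity scale, put the ribosomal proteins at a median of 0.90, at which 232 of 253 probes passed the test as higher and 0 as lower. In that setting the median of all tested probes was itself 0.24, and 448 other probes as bright as the upper part of the ribosomal proteins had a median of 0.88, against 1.01 in the 127 ribosomal protein probes. After loess the same probes had medians of -0.02 and 0.14. Among the ribosomal protein probes themselves, log2 ratio and brightness had a correlation of 0.263 across 253 probes after loess, given as a description since the probes share genes and arrays. Under median centring the small subunit median was 0.98 and the large subunit median 0.86, so that their order did not turn.

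**Figure D3:**
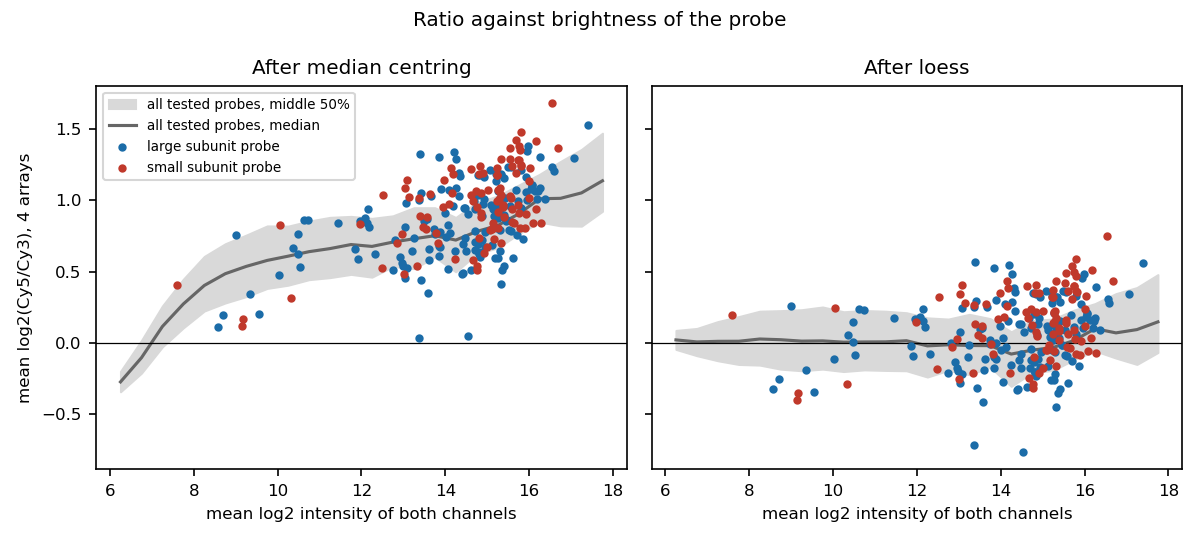
Mean log2(Cy5/Cy3) over the 4 arrays against mean log2 intensity for large and small subunit probes (points), with the median (line) and middle 50% (band) of all tested probes in intensity bins, after median centring on the left and after loess on the right. With median centring the ribosomal proteins lie around 0.90 where the line is also high. After loess they lie around 0.10 where the line runs between -0.08 and 0.10.

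Other small subunit genes had values near those called without passing the test. RPS2, which lies at the mRNA entry channel, had a mean of 0.43 ± 0.22 (SD, n = 4), with an adjusted p of 0.0764 (limma), by its brightest probe, which was above 0 on all arrays. Its other 4 probes had means of 0.06 to 0.24, and all of these were below 0 on array 4. RPS12 gave 0.21, 0.34, 0.65 and 0.22, a mean of 0.36 with an adjusted p of 0.104 (limma), and its other probe a mean of 0.47. RPS26, which contacts the mRNA upstream of the start codon, had a mean of 0.41 ± 0.22 (SD, n = 4) by its brightest probe. RPSA, the protein also known as the laminin receptor, gave 0.62, -0.07, 0.16 and -0.13 and thus rested on array 1. Without array 1 its mean was -0.01.

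The small subunit genes with the lowest means after loess were RPS24, RPS27L, RPS15A, RPS6, RPS27A and RPS3A, none of which passed the test and all of which were above 0 with median centring. RPS24 gave 0.15, -0.54, 0.06 and -0.94, so that arrays 2 and 4 were low and arrays 1 and 3 near 0. RPS15A had a mean of -0.21 ± 0.08 (SD, n = 4) and was below 0 on all arrays. RPS6, the substrate of the S6 kinases and a marker of mTORC1 activity when phosphorylated, had a mean of -0.10 ± 0.24 (SD, n = 4), with probe means of -0.21 to 0.05. Its mRNA level does not report that phosphorylation. RPS3A had a mean of -0.07 ± 0.16 (SD, n = 4).

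In the large subunit, the proteins of the acidic stalk, which recruits translation factors, all had means above 0. RPLP1 gave 0.51, 0.73, 0.20 and 0.80. Its mean of 0.56 ± 0.27 (SD, n = 4) was the highest of the large subunit, with an adjusted p of 0.0602 in limma, and both other probes had means of 0.35 and 0.28 and were below 0 on array 3. RPLP2, its partner in the stalk, gave 0.42, 0.38, 0.65 and -0.01, a mean of 0.36 with an adjusted p of 0.140 (limma). RPLP1 was lowest on array 3, on which RPLP2 was highest. RPLP0, the base of the stalk, gave 0.35, 0.35, 0.34 and 0.18, a mean of 0.31 with an adjusted p of 0.0810 (limma). RPL18 had a mean of 0.39 ± 0.14 (SD, n = 4) and RPL14 one of 0.39 ± 0.14 (SD, n = 4), with adjusted p of 0.0665 and 0.0673 in limma. Both were above 0 on every array.

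Below 0 after loess, but above 0 with median centring, lay RPL39, RPL4, RPL6, RPL26, RPL36A and RPL36AL, without a call in any of them. RPL39, a very small protein that lines the tunnel through which the new chain leaves, had the lowest mean of all genes and gave -0.996, -0.45, -1.68 and 0.07. Its mean of -0.76 ± 0.75 (SD, n = 4) had an adjusted p of 0.163 in limma, and the arrays spread over 1.76, the widest range of the group. RPL4, which also reaches into the tunnel, gave -0.43, -0.20, -0.30 and -0.37, with a mean of -0.33 ± 0.10 (SD, n = 4) and an adjusted p of 0.0766 (limma) by its brightest probe. Its other 4 probes had means of -0.11 to 0.02 and were above 0 on arrays 1 and 2. RPL6 had a mean of -0.26 ± 0.09 (SD, n = 4) and was below 0 on all arrays by its brightest probe, and its 7 probes had means of -0.26 to -0.16.

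Several genes differed far more between arrays than between their probes. RPL39 gave nearly the same 4 values with its second probe, -0.83, -0.45, -1.68 and 0.08. RPL10, which is needed to complete the large subunit, gave 0.89, 0.14, 0.84 and 0.04, so that arrays 1 and 3 were high and arrays 2 and 4 near 0, and its mean of 0.48 ± 0.45 (SD, n = 4) had an adjusted p of 0.165 (limma). RPL35A, chosen after its values were seen, gave -0.07, 0.09, -0.44 and 0.80, with array 4 far above the others in each of its 4 probes. Across 69 genes with more than 1 probe, the deviation of an array from the probe's own mean had a correlation of 0.880 between the brightest and the second probe, and the means themselves one of 0.927. These correlations are across genes that share arrays and are given as a description. The differences between arrays, each a pair of different bulls, were thus seen by separate probes of the gene.

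Probes of 1 gene mostly had close means. Their SD within a gene was 0.105, against 0.242 between genes, and in 55 of 69 genes all probes had 1 sign. No gene had probes more than 1 apart, and 2 had probes more than 0.5 apart. In RPS26 the 4 bright probes had means of 0.17 to 0.41 after loess and both dim probes means of -0.40 and -0.35, which were above 0 with median centring. The dim probes gave -0.73 and -0.74 on array 1 and 0.42 and 0.38 on array 4. In RPL37A, chosen after its values were seen, both bright probes had a mean of 0.32 and the dim probe, at -0.19, ranged from -0.86 to 0.30. RPL15, also chosen afterwards, had 8 probes whose values on 1 array lay up to 0.98 apart, and for RPL37A and RPS26 this gap reached 1.33 and 1.27. Ribosomal protein genes have many near-identical processed copies in mammalian genomes, and which transcripts each probe can bind was not tested.

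**Figure D4:**
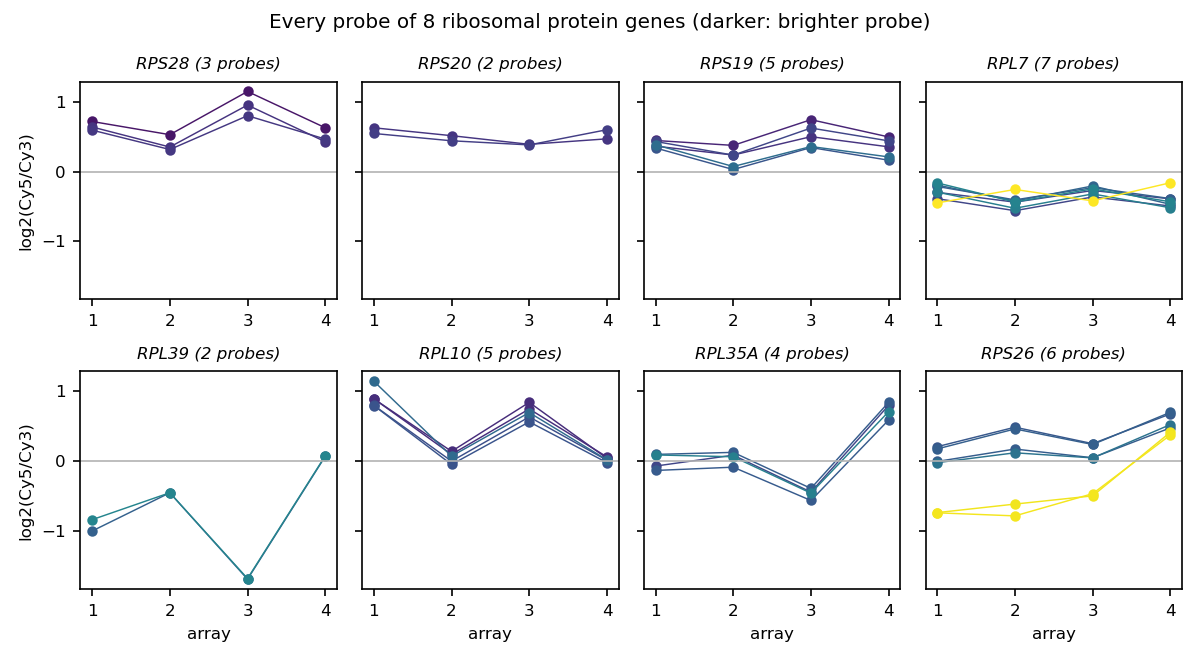
Log2(Cy5/Cy3) after loess of every probe of 8 ribosomal protein genes on arrays 1 to 4, with lines joining the values of 1 probe and darker colours for brighter probes (the order of arrays has no meaning). The probes of RPL39, RPL10 and RPL35A follow the same course over the arrays, and both dim RPS26 probes lie apart from the 4 bright ones on arrays 1 to 3.

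Across the 79 genes the arrays resembled each other to unequal degrees. The correlation of log2 ratios between arrays was 0.734 for arrays 1 and 3 and 0.711 for arrays 2 and 4, but 0.254 for arrays 1 and 4 and 0.288 for arrays 3 and 4. Over all tested genes it ranged from 0.346 to 0.607. These are descriptions over genes that share dye orientation and slide.

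The group holds paralogs, which are copies of other ribosomal protein genes. Of these, 6 were measured, and 5 of them together with the parent gene. RPL3L, which replaces RPL3 in skeletal muscle and heart, gave 1.29, 0.07, 0.60 and 0.21, and its second probe gave 1.35, 0.13, 0.58 and 0.22. Its mean of 0.54 ± 0.55 (SD, n = 4) had an adjusted p of 0.180 in limma, and array 1 was the highest. Without array 1 the mean was 0.29. RPL3, found in all tissues, gave -0.02, 0.43, 0.02 and 0.01. RPL3L was the higher on arrays 1, 3 and 4 and the lower on array 2, with a mean difference of 0.43 ± 0.70 (SD, n = 4) and a p of 0.375 in an exact two-sided sign-flip permutation test. RPS27L, a copy of RPS27 that is induced by p53, gave -0.31, -0.08, -0.49 and -0.12 after loess and lay below RPS27 on all 4 arrays, by a mean of -0.60 ± 0.19 (SD, n = 4). The exact permutation p was 0.125, the smallest that 4 arrays allow, and 0.312 after adjustment over 5 pairs. RPS4Y1 and RPS4X had means of 0.27 and 0.37, and RPS4Y1 was the lower on all arrays by a mean of -0.09 (exact permutation p = 0.125). RPL26L1 against RPL26 and RPL36AL against RPL36A changed sign between arrays, with mean differences of 0.14 ± 0.50 (SD, n = 4) and 0.05 ± 0.31 (SD, n = 4). RPL22L1 had a mean of -0.13 ± 0.20 (SD, n = 4) after loess, and 0.76 with median centring. Its parent RPL22 was not analysed here.

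**Figure D5:**
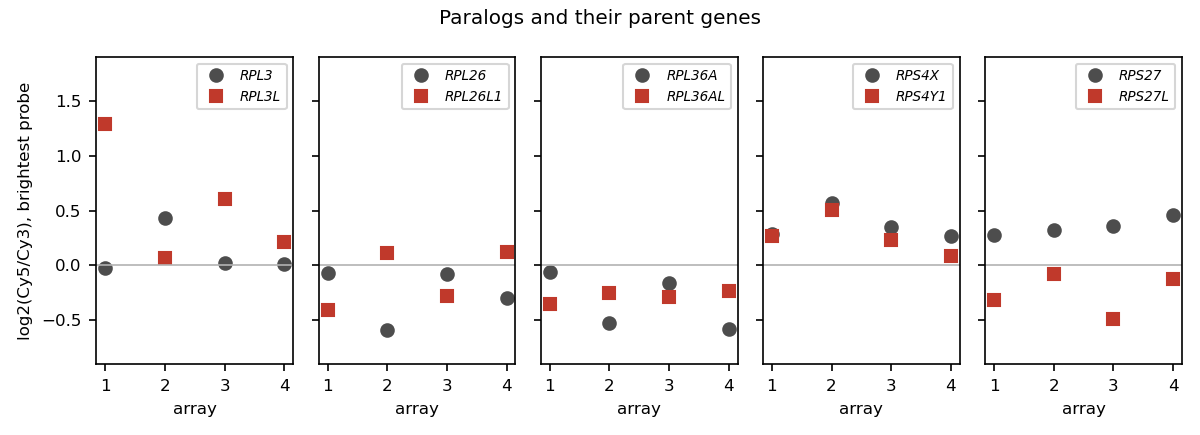
Log2(Cy5/Cy3) after loess on arrays 1 to 4 for 5 ribosomal protein paralogs (squares) and their parent genes (circles), each by its brightest probe. RPS27L lies below RPS27 on every array, RPS4Y1 follows RPS4X closely, and RPL3L stands apart from RPL3 on array 1.

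Ribosomal proteins differ in age: some have counterparts in bacteria, and others do not. The paralogs, RPLP1 and RPLP2 were left out of this grouping. In the large subunit 18 genes of the first kind and 23 of the second both had a median of 0.09. In the small subunit the medians were 0.19 over 14 genes and 0.10 over 16 genes. This grouping was chosen after the values were available and was not tested.

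Some ribosomal proteins are made as fusions with ubiquitin or a like protein, from which they are then cut. RPS27A, ubiquitin joined to a small subunit protein, gave -0.03, -0.16, -0.07 and -0.08 after loess, and a mean of 0.80 with median centring. FAU, a ubiquitin-like protein joined to RPS30, whose symbol lies outside the naming rule, gave -0.30, 0.04, -0.45 and 0.43, with an adjusted p of 0.834 (limma). RPS27A was close to 0 on all arrays, and FAU lay on either side. Not every fusion gene is reported here, so that these values do not describe the fusion genes as a group.

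Among 23 measured other genes of TOP mRNAs, mostly translation factors, 1 was higher and 0 lower. The list had a median of 0.04, with 13 genes above 0. The elongation factor subunit EEF1G had a mean of -0.47 ± 0.27 (SD, n = 4) and the initiation factor subunit EIF3E one of -0.44 ± 0.31 (SD, n = 4), both below 0 on all arrays after loess without passing the test (limma adjusted p of 0.0848 and 0.112). Among 77 measured genes of ribosome assembly and RNA polymerase I, 2 were higher and 0 lower, with a median of 0.03. They were GNL2, a nucleolar GTPase of large subunit assembly, at 0.65, and XRN2, a nuclease that trims ribosomal RNA, at 0.61. Among 14 genes that control TOP mRNAs or belong to mTORC1 signalling, 2 were higher and 0 lower, with a median of -0.08. EIF4EBP1, a repressor of cap-dependent translation that mTORC1 switches off by phosphorylation, gave 1.29, 0.98, 1.72 and 1.28, a mean of 1.32 with an adjusted p of 0.0214 in limma. MAX, the partner of MYC, had a mean of 0.74 ± 0.19 (SD, n = 4). The background for genes by brightest probe was 2.92% higher and 1.54% lower in each of these counts.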

How the data were processed

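The files of 4 dual-colour arrays, each with 1 HER and 1 HF bull, held intensity values as deposited by the authors. Per the headers they were written by Agilent's Feature Extraction and gave the uncorrected median signal of each spot and its background, and processed signals with background and dye correction. The deposited series table held log10 ratios of Cy5 over Cy3 equal to the scanner's own (largest gap 0), with a median of 0 on each array. The methods name GeneSpring. The array design was annotated on Btau_3.1.

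Median signals were corrected by normexp (offset 50) and normalized by loess within arrays, with control spots at weight 0. Outlier spots, 7 to 14 on each array, were dropped, and replicate spots of a probe were averaged. Tested probes were well above background in the same channel on all 4 arrays, with values on at least 3. Log2 ratios were tested against 0 with limma 3.58.1 in R 4.3.3 (with pandas 2.3.3 and numpy 2.4.6), two-sided, with Benjamini-Hochberg adjustment over 32606 probes. The self-test ran on simulated data. Probes were named through accessions in a gene table from RefSeq, of another build (23492 probes, 11054 genes), without coordinates. A gene was represented by its brightest probe.

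The members and gene lists were chosen with earlier results of these data known. The text names genes with a called probe, the 6 highest and 6 lowest genes of each subunit, the stalk proteins, RPSA, paralogs with their parents, RPS12 and RPS20, and of the other lists genes with the smallest p. Some genes that this rule names are not reported here. Alternatives were plain subtraction or no correction of background, median centring, the signals as the scanner processed them and the table of the series, other filters on dim probes, a robust prior with an intensity trend, the mean over the probes of a gene, each array left out in turn, and the methods' t-test. The number of arrays limits the precision.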

Additional observations from a re-analysis of the deposited data

Results flagged for a closer look

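In 5 measures 1 of the 4 arrays stood far from the other arrays, by the gap to the nearest array over the whole range (Dixon's ratio). For RPL3 array 2, at 0.43, was apart from the others (ratio 0.907), and for RPLP0 array 4, at 0.18 (ratio 0.952). These were 2 of 79 genes, and chance flags about 1 in 20 groups. The median of the large subunit probes was apart on array 1, at 0.10 (ratio 0.872), and so was the median over ribosomal protein genes, at 0.15 (ratio 0.847). The large minus small subunit difference was apart on array 2, at -0.08 (ratio 0.834), where it was nearest to 0.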

How the results depend on the processing

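The number of ribosomal protein probes called higher, 5 with loess and normexp, was 1 with plain subtraction, 0 with scanner-processed signals and 0 with the series table, 232 with median centring, 1 with an intensity trend and robust prior, and 0 to 0 with each array left out. The 1 probe called lower became 0 under each of these settings. The 3 genes called by brightest probe became 1 with plain subtraction, 0 with scanner-processed signals, 0 with the series table, 74 with median centring, 1 with the trend, 1 with the mean over probes and 0 to 0 with each array left out. The methods' t-test called 19 probes higher and 2 lower at its own threshold (8.3%, against 8.85% of all tested probes), 77 at an unadjusted p under 0.05 (30.4%, against 18.2%), and 0 probes, higher or lower, and 0 genes after Benjamini-Hochberg. Without background correction and with both other filters on dim probes, all 34 named genes had the direction and the side of the threshold they had before.

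Median centring moved the ribosomal protein median from 0.10 to 0.90 and the large minus small difference from -0.10 to -0.13, and it turned 15 genes from below to above 0: RPL22L1 to 0.76, RPL26 to 0.60, RPL26L1 to 0.47, RPL36A to 0.48, RPL36AL to 0.46, RPL39 to 0.051, RPL4 to 0.54, RPL6 to 0.60, RPL7 to 0.51, RPS15A to 0.63, RPS24 to 0.51, RPS27A to 0.80, RPS27L to 0.49, RPS3A to 0.84 and RPS6 to 0.73. The setting raised bright probes alike, from -0.02 to 0.88 in 448 bright probes of other genes. The changes of sign thus went with a rise common to bright probes, and 1 dye orientation cannot show which sign holds. The mean of RPSA ranged from -0.012 to 0.24 with 1 array left out. Over all tested probes 1083 were called, of which 59.3% were higher. With median centring 10725 were called, 93.4% of them higher, and with the trend 1666. Without arrays 1, 2, 3 and 4 there were 115, 38, 5 and 5 calls.

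All arrays had 1 dye orientation and the raw ratio climbed with brightness, so that a shift common to bright genes and a dye effect on bright probes cannot be told apart. Loess takes out most of any such shift, with bright probes of other genes left at a median of -0.02. It did not level the bright end fully. In bins of all tested probes, the median after loess was -0.08 at a mean log2 intensity of 14.25, 0.10 at 16.25 and 0.15 at 17.75. The brightest probes of RPS28 and RPS19 lay at 16.54 and 16.17. All ribosomal protein probes were well above background, so that low signal did not limit their detection.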
